A study of Mus musculus with 6 samples.

Results

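Iron handling genes were examined in mouse embryonic fibroblasts (MEFs) that lack *Anp32e*, a chaperone gene whose product removes the histone variant H2A.Z from chromatin. The 10 genes were taken from a list of iron transport, storage and control genes, *Trf*, *Tfrc*, *Fth1*, *Ftl1*, *Slc40a1*, *Slc11a2*, *Ireb2*, *Aco1*, *Hmox1* and *Cp*, out of 25043 genes in the authors' deposited table. Genes were chosen by their role in iron handling with the log2 fold changes of these data already known, and each one's RefSeq transcript was selected on its mean count over the 6 libraries, the highest of the gene. Their changes are therefore given as a description, beside the share of all genes that changed. RNA-Seq libraries came from 3 WT cultures and 3 *Anp32e*-/- cultures of primary MEFs, prepared from WT embryos and from embryos null for *Anp32e* and donated to the study. Cells were grown in medium with 10% serum and used at a passage below 8, with about 200000 cells seeded on 10 cm plates 1 day before RNA isolation. The number of embryos behind each group is not given in the sources used here, so the p-values measure the spread between these cultures only.

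Iron travels between cells bound to transferrin, the product of *Trf*, and enters through the transferrin receptor, the product of *Tfrc*. The transporter DMT1, made from *Slc11a2*, moves it from the endosome into the cytosol. Ferritin, a shell of heavy (*Fth1*) and light (*Ftl1*) chains, stores it, and ferroportin (*Slc40a1*) is the exporter, helped by copper oxidases such as ceruloplasmin (*Cp*). Heme oxygenase (*Hmox1*) frees iron from heme. The iron regulatory proteins, made from *Aco1* and *Ireb2*, bind RNA hairpins called iron-responsive elements (IREs) when iron is low. They block translation from an element in the 5′ untranslated region (UTR) and protect a message with elements in its 3′ UTR from decay.

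The IREs are shown because they are the sequence feature by which this gene set is best known. They were searched for in the GENCODE transcripts that matched the RefSeq transcripts of the members, on the sense strand, as a C, any 5 bases, the loop CAGTGN and 5 bases that pair with the 5 before the loop (Watson-Crick or G-T pairs). Capitals mark the bulged C and the 6 bases of the loop.

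Tfrc 3′ UTR element 1: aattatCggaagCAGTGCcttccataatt
Tfrc 3′ UTR element 2: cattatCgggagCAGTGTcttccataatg
Tfrc 3′ UTR element 3: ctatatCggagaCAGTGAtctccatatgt
Tfrc 3′ UTR element 4: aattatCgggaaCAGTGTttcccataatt
Fth1 5′ UTR element: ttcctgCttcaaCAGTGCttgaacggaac
Ftl1 5′ UTR element: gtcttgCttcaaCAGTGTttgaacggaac
Slc40a1 5′ UTR element: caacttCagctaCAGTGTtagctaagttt

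On GRCm38 the *Tfrc* elements lie on the plus strand at chr16:32631219-32631247, chr16:32631598-32631626, chr16:32631663-32631691 and chr16:32631710-32631738. The *Fth1* element is at chr19:9982732-9982760 on the plus strand. Those of *Ftl1*, at chr7:45459779-45459807, and *Slc40a1*, at chr1:45925465-45925493, are on the minus strand. Such a match in a 5′ UTR was found in 0.138% of 22500 protein-coding genes of GENCODE, and a match in a 3′ UTR in 0.64%. The other 6 members held no match to these letters in the transcripts searched. Among them is *Slc11a2*, which is on the list of messages known to carry IREs that is read below. A lack of a match therefore does not mean that a gene lacks an element. The *Slc11a2* transcript NM_001356952 was not among those searched. The 4 genes with a match did not share a direction. In the comparison of *Anp32e*-/- with WT MEFs, *Tfrc* and *Fth1* were increased, and *Ftl1* and *Slc40a1* were not called.

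No values per library are held in the authors' deposited table, which gives their comparison of the groups, so the spread between cultures enters only through DESeq2's standard error (SE). Total counts per library are unknown. From the mean over the 6 libraries and the log2 fold change (log2FC) of *Anp32e*-/- (null) over WT in that table, a mean of each group was computed. A gene was called at an adjusted p under 0.05 in the authors' DESeq2 Wald test over all transcripts. For *Anp32e* itself the WT mean was 3259 and the null mean 1121 normalized counts. Sex-linked transcripts differed between the groups, with *Xist* at 5111 and 0.375 normalized counts and the Y-linked *Ddx3y* at 0.174 and 1103, so genotype and the sex of the embryos cannot be told apart. Median log2FC also differed between chromosomes, from −0.35 on chromosome 14 to 0.34 on chromosome 19, so each value below was also read with the median of its chromosome taken out.

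All 10 members had an adjusted p-value. Of these, 5 were increased in *Anp32e*-/- MEFs (*Trf*, *Tfrc*, *Fth1*, *Slc11a2* and *Cp*), 1 was decreased (*Hmox1*) and 4 were not called (*Ftl1*, *Slc40a1*, *Ireb2* and *Aco1*). Among all 16697 autosomal genes tested, 31% were called, 16.8% as increased and 14.2% as decreased. By the transcript of highest mean, only *Trf* passed an absolute log2FC of 1.5, as 4.98% of the genes tested did (2.79% increased, 2.19% decreased). The other transcripts of *Cp* also passed it, with a log2FC of 4.26 and 3.89. At an absolute log2FC over 0.5 the same 6 members were called, and 16.8% of the genes tested (8.63% increased, 8.2% decreased). When an absolute log2FC of 0.5 was the null hypothesis, *Trf* and *Hmox1* were called, beside 5.96% of the genes tested (3.32% increased, 2.64% decreased). With the median of each chromosome taken out, 5 members were increased and 1 was decreased, and 23.1% of the genes tested were called (11.9% increased, 11.2% decreased). In cultures, a change in the number of cells that express a gene and a change in the RNA per cell cannot be told apart.

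**Figure D1:**
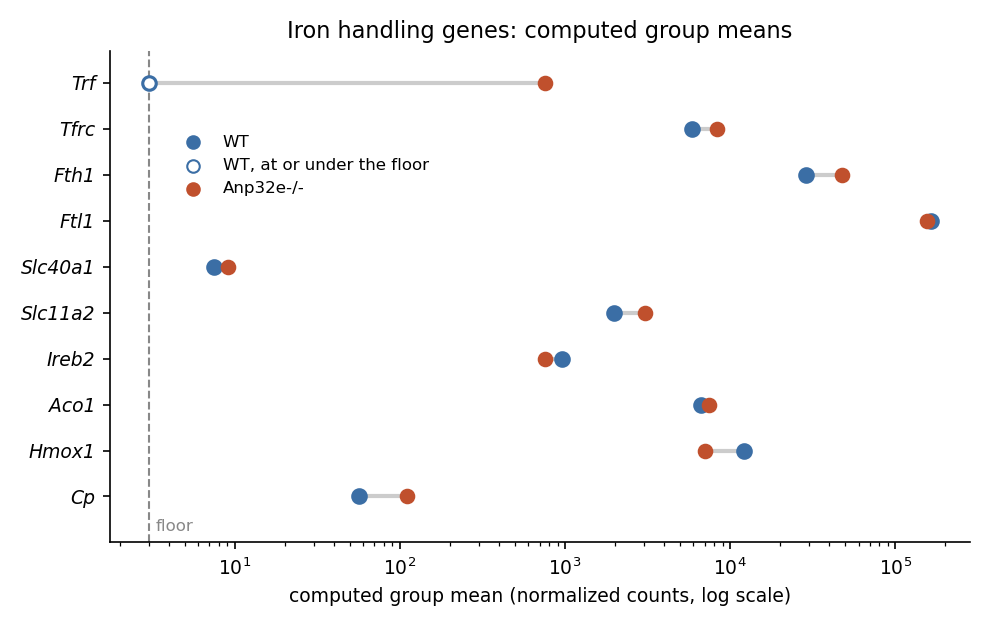
Computed group means of the 10 genes on a log axis of normalized counts, with WT in blue and *Anp32e*-/- in red; the dashed line is the floor of 3 normalized counts. *Trf* spans from the floor to 755 normalized counts. The other 9 genes, each by its transcript of highest mean, lie within 2-fold between the groups.

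*Trf*, which encodes transferrin, occupies 103208876 to 103230286 of chromosome 9 (GRCm38, minus strand), with 17 exons in its matched transcript. The WT mean was 0.174 and the null mean 755 normalized counts. A single read in 1 WT library would give a WT mean of at least 0.295, so the WT mean of *Trf* was under that of 1 read. Against a floor of 3 normalized counts for a group mean, *Trf* in null cultures was higher by at least 252-fold (adjusted p = 1.54e-22, DESeq2 Wald test). *Trf* had the highest mean of the 29 autosomal genes tested that had a mean over 3 and a WT mean under that of 1 read. These genes passed the mean filter through their null level, so this rank restates the null level of *Trf* and is no separate evidence. Per kb of transcript, the mean of *Trf* in *Anp32e*-/- MEFs was 294 normalized counts, against 1703 for *Tfrc*. Over the 6 libraries, 55.2% of the genes tested had a higher mean than *Trf*. GENCODE places another gene model, *Gm20425*, on the same strand over 16 exons of *Trf*, and 79.8% of the 50-base words of the *Trf* transcript are shared with it.

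Transferrin is made in quantity by hepatocytes, and Sertoli cells and oligodendrocytes also make it, so marker genes of these cells and of mesothelial cells were read beside it. Of 10 hepatocyte markers, 3 had no reads (*Serpina1a*, *Fgb* and *Hnf4a*) and 5 more had means under 10 normalized counts. *Alb*, which encodes albumin, was under the floor in both groups. *Ahsg*, which encodes fetuin-A, was called at these low levels, with a WT mean of 0.170 and a null mean of 5.82, at least 1.94-fold higher (adjusted p = 0.012, DESeq2). The summed level of the hepatocyte list was 338 in WT and 318 in *Anp32e*-/- MEFs, of which *Apoa2* alone gave 319 and 297. Of the 2 hepatocyte markers with a mean of at least 10, DESeq2 called 0, and 0 had an unadjusted p under 0.05. For oligodendrocyte and Schwann cells, the summed level of 9 markers was 918 in WT and 786 in *Anp32e*-/- MEFs, and *Mobp* had no reads. *Cnp* alone gave 682 and 465 of these sums. Of 3 autosomal markers at a mean of 10 or more, 1 was increased (*Mbp*), 1 was decreased (*Cnp*) and 1 was not called. For Sertoli cells the sum of 8 markers was 727 in WT and 1711 in *Anp32e*-/- MEFs, and *Fshr* had no reads. Of 5 autosomal Sertoli markers at a mean of 10 or more, 3 were increased (*Wt1*, *Gata4* and *Sox9*) and 1 was decreased (*Dhh*). Mesothelial markers also differed between the groups. Of 9 in the table, 7 were increased and 1 decreased, and their summed level was 9727 in WT and 12017 in *Anp32e*-/- MEFs. The decreased *Krt19*, a keratin gene, gave 9129 and 5671 of these sums, and the other 8 markers together rose from 598 to 6346. *Wt1*, a transcription factor gene on the Sertoli and mesothelial lists, was at 0.174 in WT and 600.5 in *Anp32e*-/- MEFs. The part of such cells in the level of *Trf* was not tested. Fibroblast markers were present in both groups, with *Vim* at 330721 and 330669 normalized counts, while *Lum* was under the floor in both. The fibroblast list had a median log2FC of 0.33. Of 10 markers at a mean of 10 or more, 7 were increased and 1 was decreased. Among all autosomal genes at that level, 19.8% were increased and 16.8% decreased. The summed level of the list was 552347 in WT and 588910 in null MEFs. *Dcn*, which encodes the proteoglycan decorin, was at 12.7 and 275 normalized counts, 21.6-fold higher in null MEFs, and the collagen gene *Col3a1* was 3.15-fold higher. The part of this difference between the cultures in the level of *Trf* was not tested.

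Of 9 genes with a mean of at least 10 whose start lies within 500 kb, 2 were increased, 0 were decreased in the DESeq2 test and 7 were not called, where 36.6% of all autosomal genes at that level were called. At an unadjusted p under 0.05, 3 of the 9 were lower (*Slco2a1*, *Topbp1* and *Cdv3*). The median log2FC of chromosome 9 was −0.22. Without it, these 3 had a log2FC of 0.015, −0.12 and −0.02 and were not called (adjusted p = 0.937, 0.617 and 0.92, recomputed Wald test). *Tmem108* and *Amotl2* kept their call, at a log2FC of 5.48 and 0.50. Distances are between the start coordinates of the genes, meaning the lowest position of each, and are not gaps between genes. For *Trf*, on the minus strand, that position is where the transcript ends. *Srprb*, the neighbour at 20.8 kb, had a WT mean of 4754 and a null mean of 4676 normalized counts (log2FC −0.02, SE 0.0908, adjusted p = 0.876, DESeq2). *Topbp1*, on the other side at 96.3 kb, had a log2FC of −0.34 (adjusted p = 0.0582, DESeq2). *Tmem108*, a membrane protein gene at 274 kb, was at the floor in WT and at 97.0 normalized counts in *Anp32e*-/- MEFs, at least 32.3-fold higher. *Amotl2*, at 492 kb, had a log2FC of 0.28.

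**Figure D2:**
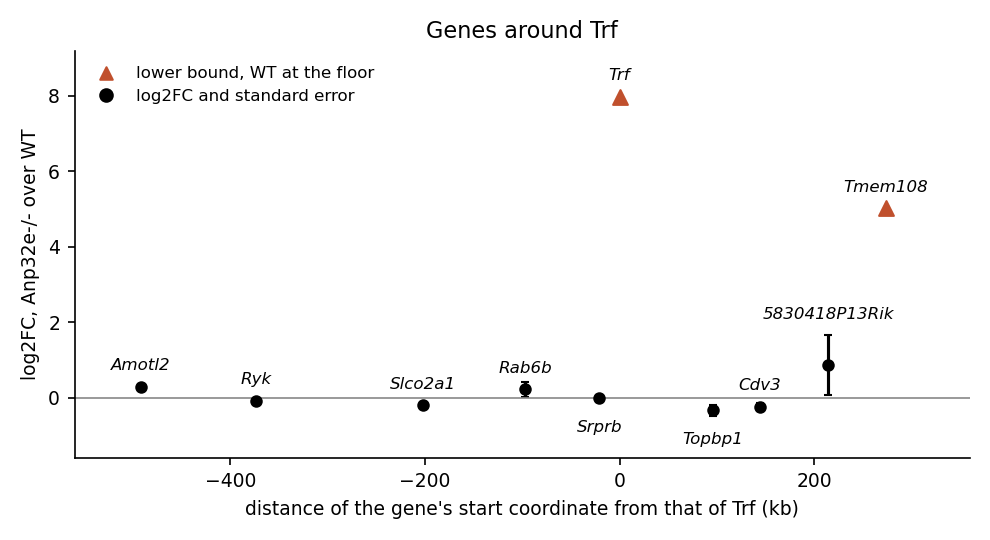
Log2FC of the genes around *Trf* against the distance of their start coordinate from that of *Trf* in kb; points are log2FC with standard error, and triangles are lower bounds for genes at the floor in WT. *Trf* and *Tmem108* stand above the other genes, which lie between −0.34 and 0.87.

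The receptor and the endosomal transporter rose by less. *Tfrc*, on chromosome 16 from 32608896 to 32632794, had a WT mean of 5848 and a null mean of 8333 normalized counts, a log2FC of 0.51 (SE 0.168, adjusted p = 0.00953, DESeq2). The median of chromosome 16 was 0.20, and without it the log2FC was 0.31 and no longer called (adjusted p = 0.188). *Slc11a2*, on chromosome 15 from 100387898 to 100424209, had computed means of 1984 and 3040 normalized counts, a log2FC of 0.62 (SE 0.0912, adjusted p = 3.01e-10, DESeq2). Its other transcripts in the table had a log2FC of 0.61 and 0.56. The median of chromosome 15 was 0.32, and without it *Slc11a2* was still called, at a log2FC of 0.29 (adjusted p = 0.00772). The first exon of its matched transcripts lies over an exon of *Gm5475* on the opposite strand.

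One ferritin chain was called and the other was not, and the difference between them was not tested. *Fth1*, the heavy chain gene on chromosome 19 from 9980600 to 9985111, had a WT mean of 28826 and a null mean of 47629 normalized counts. Its log2FC was 0.72 (SE 0.0933, adjusted p = 2.43e-13, DESeq2), for the noncoding and the coding transcript alike. The median of chromosome 19 was 0.34, and without it *Fth1* remained called at a log2FC of 0.38 (adjusted p = 0.000421). *Ftl1*, the light chain gene on chromosome 7 from 45457944 to 45459886, was the most abundant member, with 164189 and 155712 normalized counts. It was not called (log2FC −0.08, 95% interval −0.33 to 0.18, adjusted p = 0.702, DESeq2), and this interval lies below the log2FC of *Fth1*. Per kb of transcript in WT MEFs, *Ftl1* had 169616 normalized counts and the coding transcript of *Fth1* 31022. The value of *Ftl1* is uncertain, because 90.6% of the 50-base words of its transcript occur in 17 other GENCODE genes, among them the pseudogenes *Ftl1-ps1*, *Ftl1-ps2* and *Ftl2-ps*. For *Fth1* that share was 4.01%. No word was shared for *Tfrc*, *Slc40a1*, *Slc11a2*, *Ireb2*, *Aco1* or *Hmox1*.

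**Figure D3:**
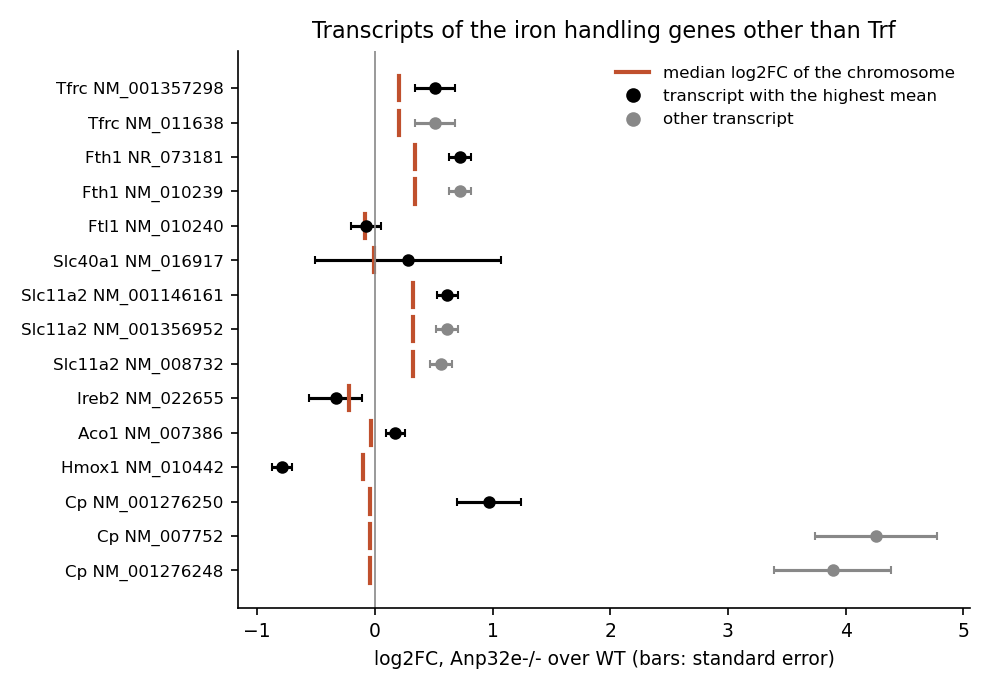
Log2FC with standard error for each transcript of the 9 members other than *Trf*, with the transcript of the highest mean in black, other transcripts in grey and the median log2FC of the gene's chromosome as a red bar. *Hmox1* lies at −0.79, *Fth1*, *Slc11a2* and *Tfrc* lie between 0.51 and 0.72 on chromosomes with medians of 0.20 to 0.34, and the transcripts of *Cp* lie far apart.

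Export genes were read at lower counts. *Slc40a1*, which encodes ferroportin and lies on chromosome 1 from 45908070 to 45926532, had a WT mean of 7.41 and a null mean of 9.01 normalized counts. Its log2FC of 0.28 had a 95% interval from −1.27 to 1.83 (adjusted p = 0.828, DESeq2), so a change of 2-fold in either direction was not excluded. *Cp*, which encodes ceruloplasmin, lies on chromosome 3 from 19956933 to 20009750. The transcript with the highest mean, NM_001276250, had a WT mean of 56.1 and a null mean of 110.0 normalized counts, a log2FC of 0.97 (SE 0.271, adjusted p = 0.00176, DESeq2). The other transcripts of *Cp* rose by far more. NM_007752 had 4.44 and 84.7 normalized counts, 19.1-fold higher in *Anp32e*-/- MEFs (log2FC 4.26, SE 0.517, adjusted p = 5.73e-15, DESeq2). NM_001276248 had 5.38 and 79.7, 14.8-fold higher (log2FC 3.89, SE 0.498, adjusted p = 1.65e-13, DESeq2).

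The last exon of NM_001276250, on chromosome 3 from 20008540 to 20009145 on the plus strand, holds 108 bases of an exon of *Hps3*, a lysosome-related organelle gene on the minus strand. The exons of the other *Cp* transcripts overlap no exon of another gene in GENCODE. Computed means of NM_001276250 exceeded those of NM_007752 by 51.6 normalized counts in WT and by 25.3 in *Anp32e*-/- MEFs. *Hps3*, named after its values were seen, had computed means of 495 and 359 normalized counts (log2FC −0.47, adjusted p = 0.000792, DESeq2). The kit keeps the strand of the RNA. The study's methods name default settings for the counting, and featureCounts does not use strand by default. However, NM_023210 and NM_001253757 of *Anp32e* had the same mean of 2190. Reads they share were thus counted for both, which the default does not do. Whether strand was used is therefore not known, so reads of *Hps3* and of this *Cp* transcript cannot be told apart here. Their part in the smaller fold was not tested.

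**Figure D4:**
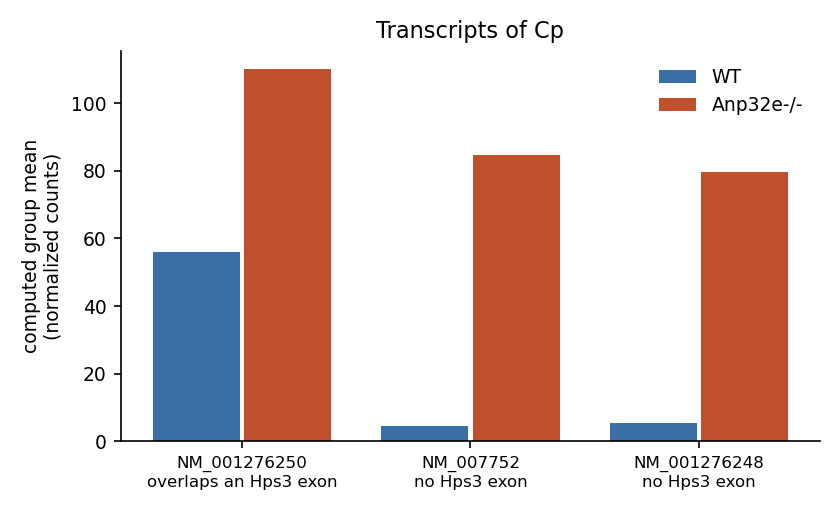
Computed group means in normalized counts of the 3 transcripts of *Cp*, WT in blue and *Anp32e*-/- in red, with no error of their own. The *Anp32e*-/- bars lie between 79.7 and 110.0, while the WT bar is 56.1 for the transcript that overlaps an exon of *Hps3* and 4.44 and 5.38 for the others.

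The iron regulatory proteins were not called. *Aco1*, on chromosome 4 from 40143265 to 40199009, had a WT mean of 6646 and a null mean of 7492 normalized counts (log2FC 0.17, 95% interval 0.016 to 0.33, adjusted p = 0.0851, DESeq2). It was called when the median of chromosome 4, −0.04, was taken out (log2FC 0.21, adjusted p = 0.0395). *Ireb2*, on chromosome 9 from 54862658 to 54912534, had 955 and 758 normalized counts (log2FC −0.33, 95% interval −0.77 to 0.10, adjusted p = 0.26, DESeq2). Without the median of chromosome 9, −0.22, its log2FC was −0.11. *Fbxl5*, the ubiquitin ligase subunit that degrades *Ireb2* protein when iron is high, had a log2FC of 0.02 (adjusted p = 0.898, DESeq2).

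*Hmox1*, which encodes inducible heme oxygenase, was the only member called as decreased. On chromosome 8 from 75093618 to 75100593, it had a WT mean of 12214 and a null mean of 7057 normalized counts, a fall of 0.79 on the log2 scale (log2FC −0.79, SE 0.0862, adjusted p = 1.78e-18, DESeq2). Without the median of its chromosome the log2FC was −0.69. *Hmox1* is induced by NRF2 and repressed by BACH1, so 9 genes of this system were read beside it. Of these, 3 were increased and 2 decreased. Among all autosomal genes at a mean of 10 or more, 19.8% were increased and 16.8% decreased. *Nqo1*, a quinone reductase, had 1630 and 906 normalized counts (log2FC −0.85), and *Slc7a11*, a cystine transporter, had a log2FC of −0.70. *Txnrd1*, thioredoxin reductase, had a log2FC of 0.42, and *Gclm*, for glutathione synthesis, of 0.31. *Nfe2l2*, *Keap1* and *Bach1* were not called, with a log2FC of −0.12, −0.08 and 0.12. All 5 called genes kept their call without the median of their chromosomes, where 27.1% of all autosomal genes at that level were called.

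Other genes of iron metabolism were read from lists written with earlier results known, at a mean of 10 or more. Of all 13768 autosomal genes at that level, 36.6% were called (19.8% increased, 16.8% decreased, median log2FC −0.0024). Over all iron pathway lists, 33 of 91 genes were increased and 17 decreased, with a median log2FC of 0.11. Without the 9 members among them, 28 of 82 were increased and 16 decreased. With chromosome medians taken out, 22 of 91 were increased and 9 decreased, against 13.9% and 13.2% of all genes at that level (27.1% in either direction).

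Transferrin cycle and import genes were increased in 8 of 12 cases and decreased in 1, with a median log2FC of 0.54. With chromosome medians taken out, 6 were increased and 1 decreased. The genes *Steap3*, *Steap1* and *Steap2* of the STEAP metalloreductase family had a log2FC of 0.84, 0.81 and 0.62. Their chromosomes had medians near 0, so the values without them were 0.85, 0.81 and 0.62. *Slc39a8*, a metal importer, was the decreased gene, with a WT mean of 58.1 and a null mean of 22.5 normalized counts (log2FC −1.37, adjusted p = 0.00178, DESeq2). Among other carriers, *Lrp2*, an endocytic receptor, had 37.8 and 77.9 normalized counts (log2FC 1.04), *Cubn*, its partner, had a log2FC of 0.43, and *Slc22a17*, a lipocalin receptor, of −0.91. The call of *Slc22a17* was lost without the median of chromosome 14 (adjusted p = 0.124).

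**Figure D5:**
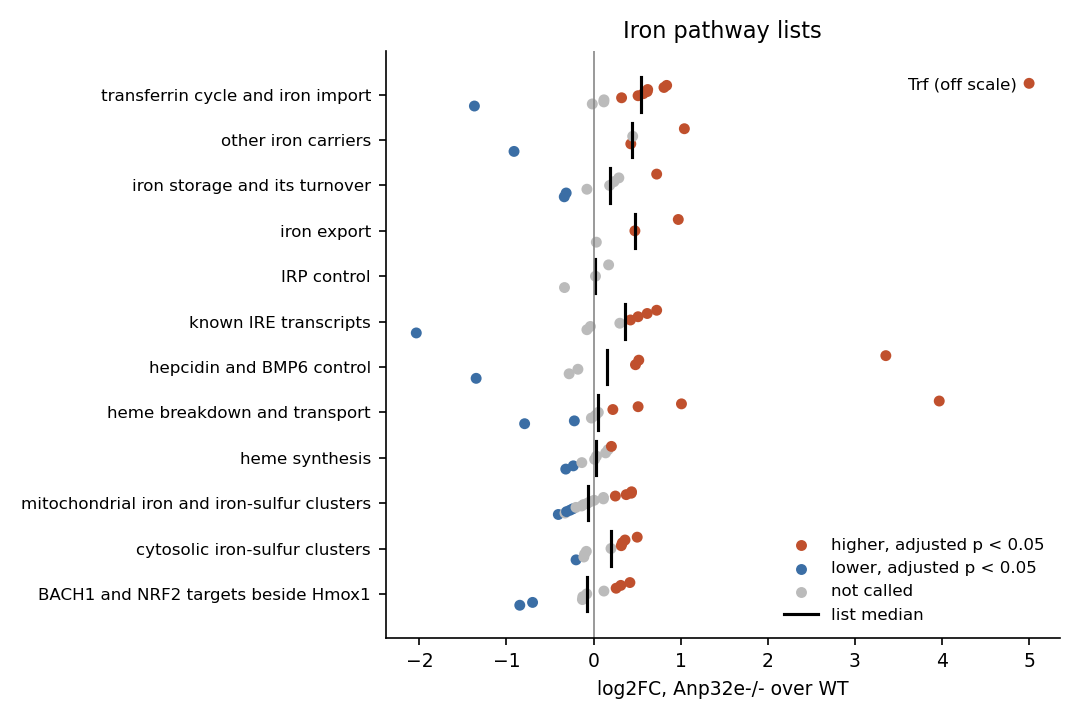
Log2FC of the autosomal genes of each iron pathway list at a mean of 10 or more; red and blue points are called as increased and decreased, grey points are not called and black bars are list medians. *Trf* lies off the scale at the right, and most other points lie between −1 and 1.

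Of 6 genes that control hepcidin, the iron hormone of the liver, 3 were increased and 1 was decreased, with or without the chromosome medians. *Bmp6*, which encodes the ligand that induces hepcidin in the liver, had a WT mean of 20.7 and a null mean of 212 normalized counts, 10.2-fold higher (log2FC 3.36, SE 0.312, adjusted p = 3.53e-25, DESeq2). The co-receptor gene *Neo1* and the protease gene *Furin* had a log2FC of 0.52 and 0.48. *Hfe*, which encodes a partner of transferrin receptors, had 104 and 40.9 normalized counts (log2FC −1.35, adjusted p = 1.78e-05, DESeq2). All 4 kept their call without the median of their chromosomes. *Hamp*, the hepcidin gene, was under the floor in both groups, and *Hjv* had no reads.

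In heme handling, 4 of 9 genes were increased and 2 decreased, or 2 and 1 with chromosome medians taken out. *Hp*, the haptoglobin gene, was at the floor in WT and at 34.4 normalized counts in *Anp32e*-/- MEFs, at least 11.5-fold higher. *Lrp1*, the receptor for heme bound to hemopexin, had 12802 and 25765 normalized counts (log2FC 1.01, SE 0.102, adjusted p = 2.62e-21, DESeq2). *Slc48a1*, a heme transporter, had a log2FC of 0.51, which was not called without the median of chromosome 15 (0.19, adjusted p = 0.163). Of 8 heme synthesis genes, 1 was increased (*Fech*, log2FC 0.20) and 2 were decreased (*Urod*, −0.32, and *Alas1*, −0.23). With chromosome medians taken out, *Alas1* (−0.01) and *Fech*, which turned to −0.10, were not called.

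Of 7 storage genes, *Fth1* was increased, 2 were decreased and 4 were not called, and none was decreased with chromosome medians taken out. *Ncoa4*, the receptor that delivers ferritin for degradation, had 1597 and 1265 normalized counts (log2FC −0.34, adjusted p = 0.00583, DESeq2), but the median of chromosome 14 was −0.35 and without it the log2FC was 0.014 (adjusted p = 0.95). *Pcbp4*, a relative of the iron chaperones that load ferritin, had a log2FC of −0.31, which was −0.09 and not called without the median of chromosome 9. In iron export, *Flvcr1*, a heme exporter, had a log2FC of 0.47 and kept its call.

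For messages known to carry IREs, 4 of 8 were increased and 1 decreased, or 2 and 1 with chromosome medians taken out. *Epas1*, which encodes the hypoxia factor HIF-2α, had 24.5 and 5.97 normalized counts (log2FC −2.04, SE 0.604, adjusted p = 0.00364, DESeq2) and kept its call. Of 17 mitochondrial iron and iron-sulfur cluster genes, 4 were increased and 4 decreased, or 1 and 2 with chromosome medians taken out. Of 9 cytosolic iron-sulfur cluster genes, 4 were increased and 1 decreased in the DESeq2 test, where 5 had an unadjusted p under 0.05. None of these 9 was called with chromosome medians taken out. *Ciao3*, *Nubp2*, *Nubp1* and *Mms19* of this group lie on chromosomes 17, 16 and 19, whose medians were 0.20 to 0.34, and *Mms19* turned from 0.32 to −0.03 without its median.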

How the data were processed

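RNA-Seq of 3 WT and 3 *Anp32e*-/- MEF cultures was examined. Per the labels and the study's methods, the authors made stranded total RNA libraries, aligned reads to mm10 with STAR, and used featureCounts on RefSeq transcripts and DESeq2. The methods name default settings for both. The same mean of NM_023210 and NM_001253757 of *Anp32e* shows that shared reads were counted for both transcripts, which is not the featureCounts default. Their deposited table has 1 line for each of 42361 transcripts. The signal in it is a mean count of the 6 libraries, deposited after scaling by size factors. The deposited log2 fold changes and standard errors are from the authors' model, and the score is the authors' Wald statistic. The p-values are the authors', both as tested and adjusted (Benjamini-Hochberg). An analysis of counts had been foreseen, but no values per library are held, so no count model was fitted.

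RefSeq's GRCm38.p6 annotation placed 42203 transcripts in genes. The transcript of highest mean stood for its gene, and X and Y genes were left out. Means of WT and null were derived from mean and log2FC for equal groups of 3 and have no error of their own. Means of 1 read were taken from the lowest steps of the mean column. The 95% intervals are Wald intervals. Tests with chromosome medians taken out, and with an absolute log2FC of 0.5 as null hypothesis, were recomputed from log2FC and standard error and adjusted over autosomal transcripts. These steps were tested on simulated data. IREs, exon overlaps and 50-base words came from GENCODE M21 (GRCm38); the transcripts shown as *Tfrc* and *Fth1* by length are their coding ones. Python 3.11.15, numpy 2.4.6, pandas 2.3.3, scipy 1.17.1 and matplotlib 3.10.9 were used.

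The members and lists were chosen with earlier results of these data known. Named genes are the members, *Anp32e*, neighbours of *Trf* within 500 kb, and per list up to 4 called genes of largest absolute log2FC at a mean of 10 or more, of which not all are given. Other genes named from the lists are those whose role the text turns on. *Inhca* and *Muc16* were not matched. Macrophage and erythroid lists were also read: 1 of 2 macrophage markers with a mean of at least 10 was increased and 1 decreased, and 1 of 3 erythroid markers was decreased. Some genes of the lists are not reported here.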

Additional observations from a re-analysis of the deposited data

Results flagged for a closer look

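*Heph*, which encodes the copper oxidase hephaestin, a relative of ceruloplasmin in iron export, lies on the X chromosome and was outside the comparison of autosomal genes. Its computed mean was 24.0 normalized counts in *Anp32e*-/- MEFs, above the level in WT MEFs (1.57, at the floor), which makes it at least 8.01-fold higher (adjusted p = 4.1e-05, DESeq2 Wald test). Since the groups differed in *Xist* and *Ddx3y*, genotype and the sex of the embryos cannot be told apart for this X-linked gene. No chromosome median was taken out for *Heph*. It was picked out as a signal among X-linked genes, which the comparison of autosomal genes left out.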

How the results depend on the processing

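Of the members, 1 was increased and 0 were decreased at an absolute log2FC over 1.5, and 1 was increased (*Trf*) and 1 decreased (*Hmox1*) when an absolute log2FC of 0.5 was the null hypothesis. The count at 1.5 depends on the transcript that stands for *Cp*, whose other transcripts had a log2FC of 4.26 and 3.89. An adjusted p under 0.01, an absolute log2FC over 0.5, adjustment over every transcript with a read, and X and Y genes kept left 5 increased and 1 decreased. With chromosome medians taken out there were again 5 and 1, with *Aco1* called in place of *Tfrc*, and the log2FC of *Ftl1*, which was not called, turned to 0.0080. The cause of the chromosome shifts was not tested. Over all iron pathway lists the number of decreased genes fell to 9 with chromosome medians taken out, an alternative chosen after seeing the data. Low counts limit which changes could be excluded: the interval of *Slc40a1* spans −1.27 to 1.83. No paired analysis was possible because the table holds no values per library. Leaving out replicates could not be run for the same reason.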
